A study of Danio rerio with 16 samples.

Results

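The cytosolic ribosomal protein genes were followed across 16 RNA-seq libraries of whole zebrafish embryos that lack gfi1aa, gfi1b and gfi1ab in every combination. Genes were taken by symbol (rpl or rps with a number, rplp0 to rplp2, and rpsa), by a description as a ribosomal protein, and by a minimum of 100 counts summed over the libraries. This gave 76 of the 32520 genes in the count table, 44 of the large subunit and 32 of the small subunit. All 76 genes whose symbol fitted the pattern met the other criteria, so no gene lay just outside the minimum, and the lowest inside it were rpl26 with 265 counts, rpl9 with 1355 and ENSDARG00000076360 with 3637. That last gene and ENSDARG00000034291 are both named rpl37, so the 76 genes carry 75 symbols. rps2, rpl3 and rplp0 collected the most counts, 1204587, 911219 and 872732 over the libraries.

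Cytosolic ribosomes are built from ribosomal RNA and a fixed set of proteins, with the small subunit reading the mRNA and the large subunit joining amino acids. In vertebrates most of these proteins are encoded by mRNAs that begin with a terminal oligopyrimidine (TOP) sequence, through which mTOR signalling and the RNA-binding protein Larp1 control their translation as a group. Ribosomal protein genes are best known in blood for Diamond-Blackfan anaemia, in which the loss of a single copy in humans reduces red cell production. Gfi1 proteins are transcriptional repressors that act in blood development.

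The libraries were made from RNA of embryos at 15 h post fertilization (hpf), 2 for each of 8 genotypes: the triple mutant gfi1 TM, the double mutants gfi1aa/1ab DM, gfi1aa/1b DM and gfi1b/1ab DM, the single mutants gfi1aa-/-, gfi1ab-/- and gfi1b-/-, and WT. The alleles are gfi1aa smu10, gfi1b smu11 and gfi1ab smu12, of which the last pair was made by CRISPR/Cas9 editing, and each mutant group is named for the alleles it carries. By the study's methods the single mutants were sorted by genotyping from crosses of heterozygotes, gfi1aa/1b DM and gfi1aa/1ab DM from parents already homozygous for gfi1b or gfi1ab, and gfi1 TM from parents homozygous for gfi1aa and gfi1b. No cross is named for gfi1b/1ab DM, WT were wild type siblings, and the number of embryos per library and the clutch each came from are not given, so genotype and clutch cannot be told apart.

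Libraries held between 15657371 and 22524501 counts on genes, and values are given as CPM, a gene's share of the library in which library sizes were first scaled by the TMM method of edgeR. CPM was not divided by transcript length, so it compares libraries for a gene and not genes with each other. Of 17 genes under 14 symbols that mark tissues of the embryo, 15 had counts in every library, with 974 to 1385 counts of tal1 (blood) and 142531 to 211326 of krt4 (skin), while 2 of the 4 genes named ctslb (hatching gland) had 0 counts in some libraries. sox17, a marker of endoderm, had only 1 to 20 counts. gfi1 TM replicate 2 stood apart in 5.57% of reads mapped to several places, where the other libraries had 3.52% to 4.39%, and the part of this in the results was not tested.

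The share of gene counts on ribosomal protein genes was higher in mutants than in WT. The 76 genes took 10.2% and 8.52% of gene counts in gfi1 TM libraries, 9.96% and 9.99% in those of gfi1aa/1ab DM, and 8.66% and 8.62% in those of gfi1aa/1b DM. The share was 7.65% and 8.10% in gfi1aa-/-, 8.22% and 8.52% in gfi1b/1ab DM, 8.72% and 7.79% in gfi1ab-/-, 8.35% and 8.20% in gfi1b-/-, and 7.48% and 7.64% in WT. All 14 mutant libraries lay above both WT libraries, gfi1aa-/- replicate 1 only by a margin near the counting error, gfi1aa/1ab DM was the only genotype with both libraries above 9.9%, and the replicates of gfi1 TM and of gfi1ab-/- lay further apart than those of the other genotypes. The mean share over the WT mean was 1.32 in gfi1aa/1ab DM, 1.24 in gfi1 TM, 1.14 in gfi1aa/1b DM, 1.11 in gfi1b/1ab DM, 1.09 in gfi1ab-/-, 1.09 in gfi1b-/- and 1.04 in gfi1aa-/-. Counting error is small at this depth, with a 95% Clopper-Pearson interval of 10.2% to 10.2% for the highest library and 7.47% to 7.50% for the lowest, so the difference between replicates is the error that matters. In RNA from whole embryos, a change in the number of cells with many ribosomes and a change in mRNA per cell cannot be told apart. The 10 genes with the most counts also took a varying share. For gfi1aa/1ab DM it was 7.82% and 7.40%, for gfi1 TM 7.58% and 6.84%, and for WT 6.46% and 6.65%. It was lower than WT for gfi1aa-/- (5.97% and 6.21%) and ran between 6.62% and 7.28% for the other mutants. Whether ribosomal protein genes rose more than other genes of like level was not tested, here or in the comparisons below.

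**Figure D1:**
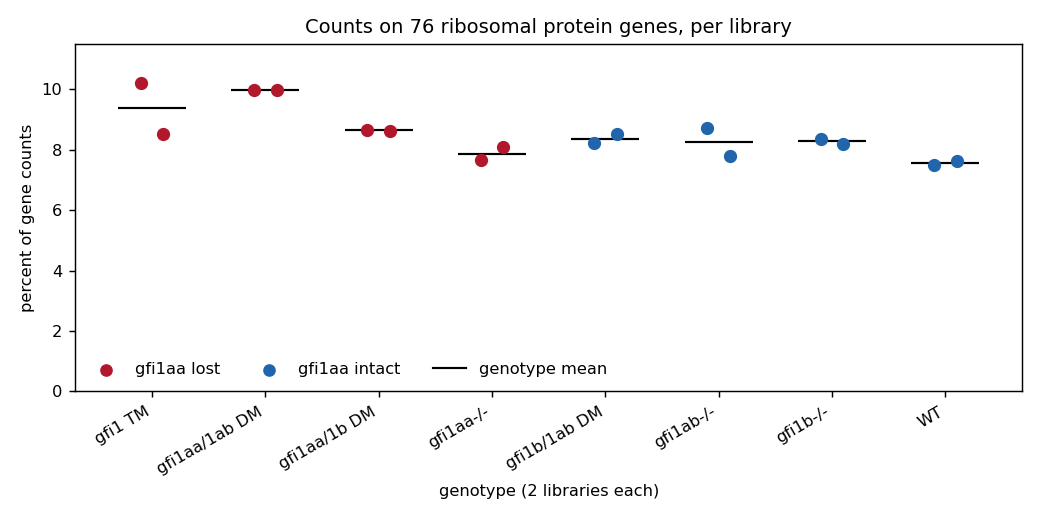
Percent of gene counts on the 76 ribosomal protein genes (vertical axis) in each library, by genotype, with red points for genotypes that lack gfi1aa, blue points for the others and a line at the mean of 2 libraries. gfi1aa/1ab DM is high in both libraries (9.96% and 9.99%), gfi1 TM in only 1 (10.2% against 8.52%), and both WT libraries are below 7.7%.

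The large and small subunits moved together. Large subunit genes took 1.45 to 1.49 times the counts of small subunit genes in every library, a narrow range across libraries in which the share of both together ran between 7.48% and 10.2%. The genes also shifted together, by a median log2 difference from the WT mean of 0.50 and 0.21 for gfi1 TM, 0.50 and 0.49 for gfi1aa/1ab DM, 0.24 and 0.22 for gfi1aa/1b DM, and 0.01 and 0.11 for gfi1aa-/-. It was 0.14 and 0.19 in gfi1b/1ab DM, 0.27 and 0.07 in gfi1ab-/-, and 0.15 and 0.12 in gfi1b-/-. The median over all genes tested lay between 0.00 and 0.02 in the mutant libraries. TMM scaling holds that median near 0 by design, here and in the comparisons below, so it is a reference point and not a result. All 76 genes lay above their WT mean in both gfi1aa/1ab DM libraries. The SD of a gene's log2 level over the 16 libraries had a median of 0.17, against 0.12 for the 1595 other genes with a mean CPM at or above the lowest of the ribosomal protein genes with over 5000 counts. Once each library's median difference over the 76 genes was taken away, the median SD of these genes was 0.05. This step lowers the SD in part by construction and was not done for the 1595 genes, so 0.05 cannot be set against 0.12. Among the 73 genes with over 5000 counts, rpl15, a large subunit protein, followed the library median most closely (SD 0.02) and rpl31, a protein near the exit tunnel of the large subunit, least closely (SD 0.31).

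**Figure D2:**
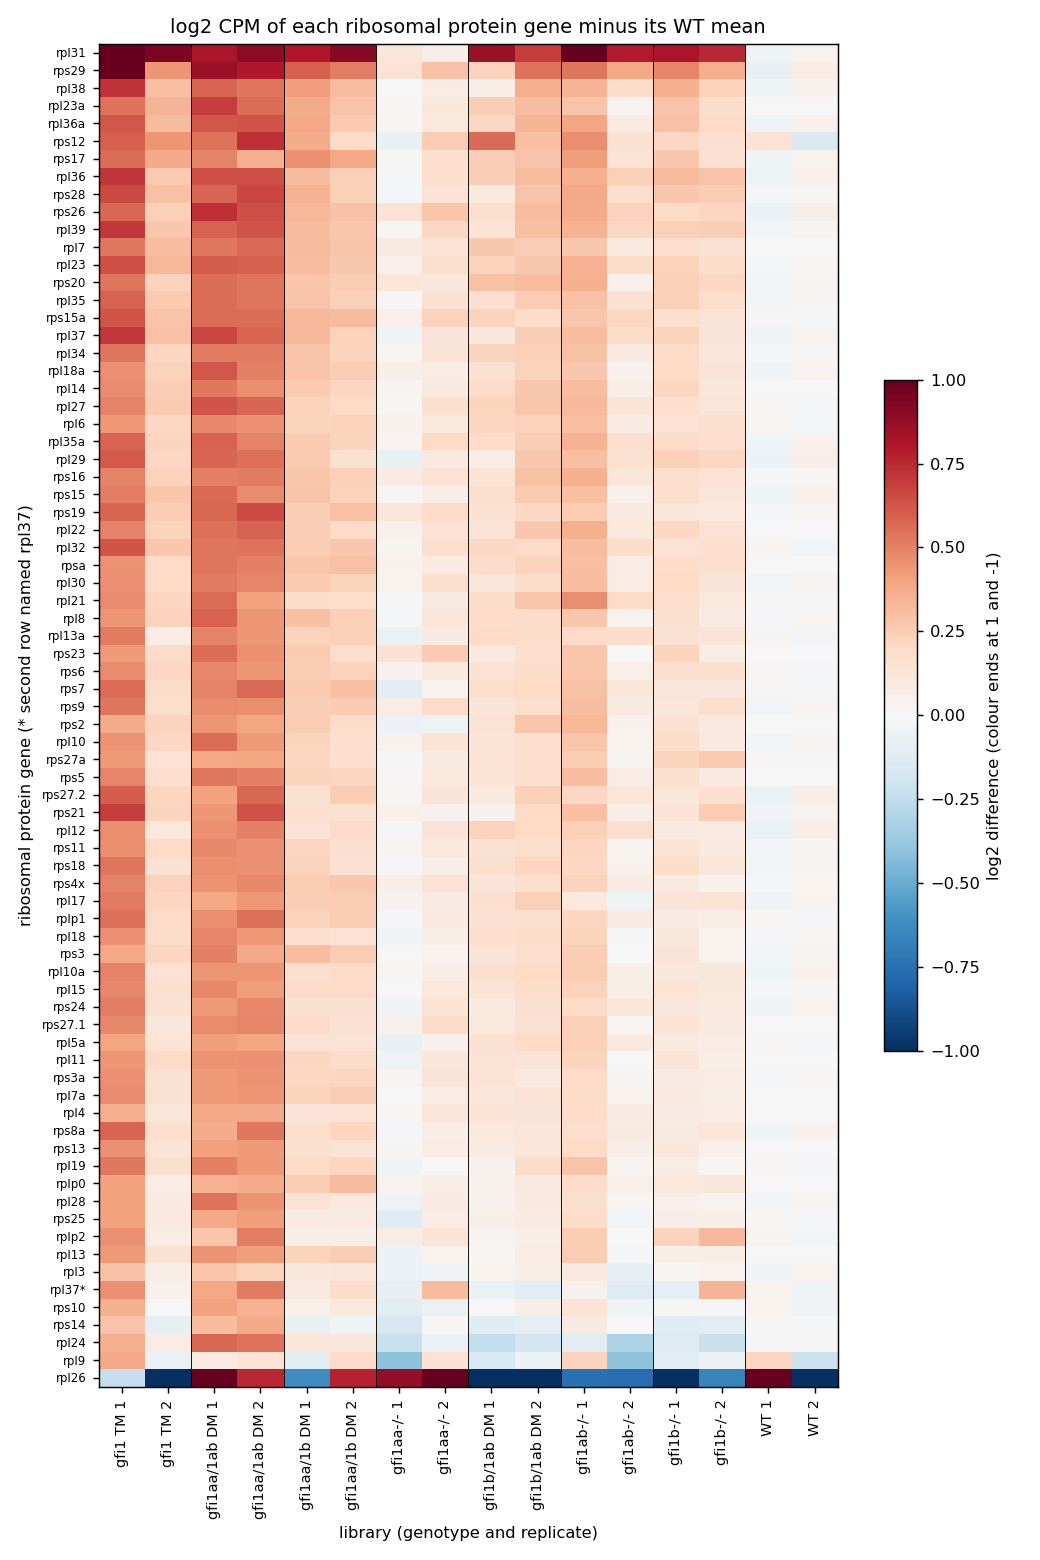
Log2 CPM minus the WT mean (colour, cut at 1 and -1) for each of the 76 genes (rows, sorted by their median) in each of the 16 libraries (columns). The columns of gfi1aa/1ab DM (medians 0.50 and 0.49) and gfi1 TM replicate 1 (0.50) are the reddest, rpl31 in the top row is pale in gfi1aa-/- and WT, and rpl26 in the bottom row rests on 3 to 45 counts per library.

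Loss of gfi1ab was the change with the most ribosomal protein genes past the threshold. In the 4 genotypes that lack gfi1ab (gfi1 TM, gfi1aa/1ab DM, gfi1b/1ab DM and gfi1ab-/-) against the 4 that do not, 69 of 76 genes were higher and 0 lower by the edgeR quasi-likelihood test with a Benjamini-Hochberg adjusted p under 0.05, where 12.7% of all 19903 genes tested were higher and 11.2% lower. Their median log2 fold change was 0.19, against 0.01 over all genes. Of the large subunit genes 38 of 44 were higher (median 0.20), and of the small subunit genes 31 of 32 (median 0.19). The largest changes were those of rpl31 (0.48, standard error 0.05, adjusted p = 2.5e-05), rps12 (0.33), which acts in cell competition in Drosophila, rps29 (0.32), a Diamond-Blackfan anaemia gene, rpl37 (ENSDARG00000034291, 0.27), rpl36 (0.27) and rpl21 (0.26). rpl21 was the only gene of the 76 with all 8 libraries that lack gfi1ab above all 8 that do not, which 0.432% of all genes showed in this direction: its CPM was 949.1 at most in the libraries with gfi1ab, of gfi1aa/1b DM, and 953.0 at least in those without it, of gfi1b/1ab DM, so the gap was narrow. The 7 genes that did not pass were rplp0, rplp2, rpl3, rps23, rpl9, rpl26 and the rpl37 gene ENSDARG00000076360. By background, the mean share of counts was 9.98% in gfi1aa/1ab DM against 7.87% in gfi1aa-/-, and 8.25% in gfi1ab-/- against 7.56% in WT. Libraries overlapped for gfi1 TM (mean 9.37%) against gfi1aa/1b DM (8.64%), and for gfi1b/1ab DM (8.37%) against gfi1b-/- (8.28%). Loss of gfi1ab was not tested within each background.

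The call across so many genes rests on the replicate spread within genotypes and largely on 1 genotype. With 1 mean for each side, differences between genotypes of a side count as error. In that fit 6 genes passed at a median of 0.20, where 3.20% of all genes were higher. Without both libraries of gfi1aa/1ab DM 13 passed, with a median of 0.13, an alternative chosen after seeing the data. Muscle genes, read as a measure of stage, moved in the same comparison: 9 of 13 were higher and 1 lower, where 12.7% of all genes were higher and 11.2% lower. Their median was 0.29 (mylpfa 0.56, myl1 0.56, myog 0.41), with a summed level of 1322 to 1790 CPM in libraries without gfi1ab and 1279 to 1667 CPM in the others. Muscle sums were 1332 and 1322 CPM in gfi1aa/1ab DM and 1667 and 1582 CPM in WT. On gfi1aa loss 0 of the 13 muscle genes were higher and 1 lower (median -0.16), where 7.08% of all genes were higher and 7.47% lower. The part of stage in the ribosomal protein results was not tested.

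Loss of gfi1aa, in gfi1aa-/-, gfi1 TM and the double mutants gfi1aa/1ab DM and gfi1aa/1b DM against the other 4 genotypes, went with 55 of 76 genes higher and 0 lower, where 7.08% of all genes were higher and 7.47% lower. All 76 had a positive log2 fold change, as had 10059 of all 19903 genes, and the median was 0.17 against 0.00. Of the large subunit genes 31 of 44 and of the small subunit genes 24 of 32 passed. Besides the sparse rpl26, the largest changes were those of rpl24 (0.34, standard error 0.05, adjusted p = 2.1e-04), which forms a bridge between the subunits, rps29 (0.27, standard error 0.07, adjusted p = 0.022), rps19 (0.25, standard error 0.04, adjusted p = 0.0021), the first Diamond-Blackfan anaemia gene found, rps15a (0.22), rps26 (0.22), rpl37 (ENSDARG00000034291, 0.22), rps4x (0.21), rps23 (0.20) and rplp1 (0.20). No gene of the 76 had all 8 libraries that lack gfi1aa above all 8 others (0.312% of all genes had). The mean share of counts in gfi1aa-/- (7.87%) lay between that of WT (7.56%) and those of the gfi1aa unrelated mutants (8.25% to 8.37%). For rps19, gfi1aa-/- (724.2 and 762.9 CPM) lay among the unrelated mutants. This gene was 724.2 at the lowest, 803.2 at the median and 1045 CPM at the highest in gfi1aa related mutants, against 656.3, 720.9 and 793.6 CPM in WT and gfi1aa unrelated mutants.

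This count was less stable than that of gfi1ab. With 1 mean per side 0 genes passed (48 at an unadjusted p under 0.05), where 0.806% of all genes were higher. Without both gfi1aa/1ab DM libraries 2 passed, with a median of 0.10. Leaving out a single library gave 17 to 71 genes, with the 2 highest counts 71 without gfi1 TM replicate 2 and 61 without gfi1ab-/- replicate 1. The fits that lowered the count by more than 1.5 times gave 17 (without gfi1aa-/- replicate 2), 29 (gfi1aa/1b DM replicate 1 or WT replicate 1), 31 (gfi1b/1ab DM replicate 1, gfi1ab-/- replicate 2 or either library of gfi1b-/-), 34 (WT replicate 2) or 35 (gfi1aa/1b DM replicate 2).

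Loss of gfi1aa was also tested within each of 4 backgrounds. gfi1aa/1ab DM against gfi1ab-/- had 51 genes higher and 0 lower (5.88% of all genes higher, 8.24% lower), with a median of 0.32. gfi1 TM against gfi1b/1ab DM had 1 higher, rpl24, and 0 lower (1.05% of all genes higher, 0.909% lower), with a median of 0.19 and 32 genes higher at an unadjusted p under 0.05. gfi1aa/1b DM against gfi1b-/- had 0 higher and 0 lower by edgeR (2.42% of all genes higher, 2.25% lower, median 0.08), with 4 higher at an unadjusted p under 0.05 and 1 by DESeq2. gfi1aa-/- against WT also had 0 higher and 0 lower by edgeR (6.47% of all genes higher, 5.66% lower, median 0.06), with 2 higher at an unadjusted p under 0.05 and 0 by DESeq2. Of all 19903 genes, 1673 for gfi1 TM, 1845 for gfi1aa/1b DM and 2611 for gfi1aa-/- were higher at an unadjusted p under 0.05. In gfi1aa/1ab DM 72 of 76 genes had both libraries above both gfi1ab-/- libraries, where 28.0% of all genes did, in gfi1aa/1b DM 57 lay above gfi1b-/- (28.0%), in gfi1 TM 36 above gfi1b/1ab DM (21.2%), and in gfi1aa-/- 33 above WT (29.0%).

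**Figure D3:**
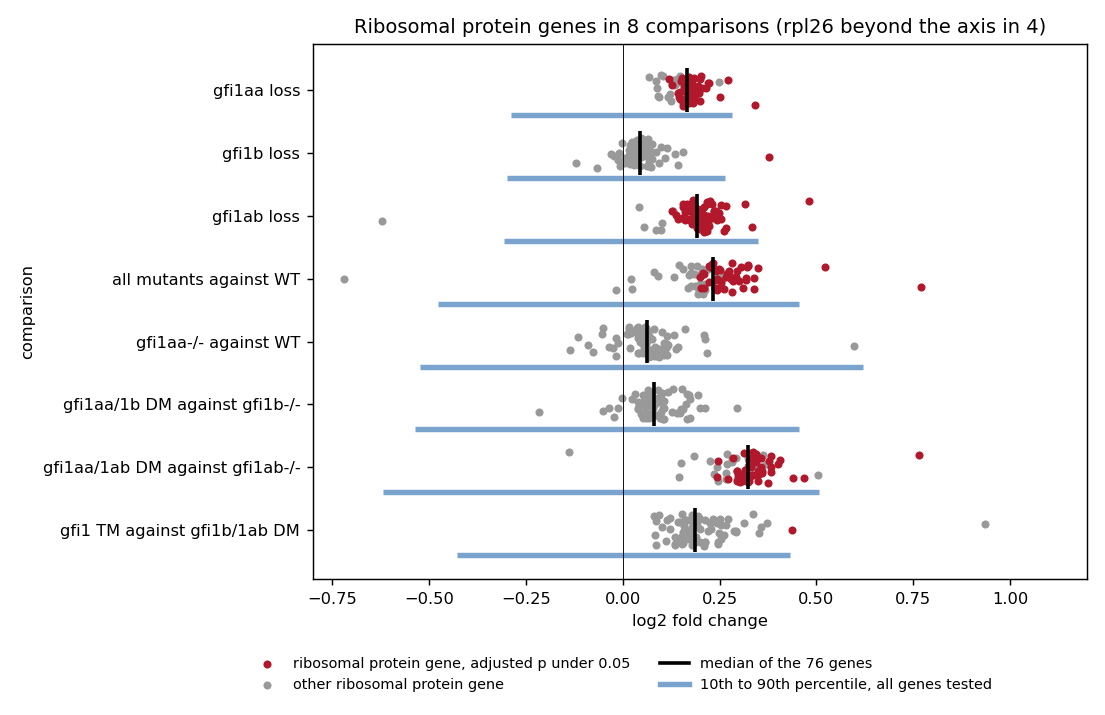
Log2 fold change of each ribosomal protein gene (horizontal axis) in 8 comparisons, red where the adjusted p was under 0.05, with a black line at the median and a blue bar for the 10th to 90th percentile of all genes tested; rpl26 lies beyond the axis in 4 comparisons. Most points form narrower bands than the blue bars, which cover genes of every level tested, so the widths are not compared at like level. The medians were 0.32 for gfi1aa/1ab DM against gfi1ab-/- and 0.06 for gfi1aa-/- against WT.

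The differences between these counts depend on the fit. With only the libraries compared, each with 1 mean per side, 18 genes were higher in gfi1aa/1ab DM against gfi1ab-/- (3.74% of all genes). In gfi1aa/1b DM against gfi1b-/- 18 were higher and 1 lower, where 9.70% of all genes were higher. In gfi1aa-/- against WT 1 was higher (7.71% of all genes), and in gfi1 TM against gfi1b/1ab DM 0 (0.0594%). Counts within backgrounds also turned on single libraries. For gfi1aa/1ab DM against gfi1ab-/- the 51 became 6 without gfi1aa/1ab DM replicate 1, 11 without its replicate 2, 2 without gfi1ab-/- replicate 2 and 30 without gfi1b-/- replicate 1. For gfi1 TM against gfi1b/1ab DM the 1 became 55 without gfi1 TM replicate 2, at a median of 0.34, and 0 without gfi1 TM replicate 1, at a median of 0.03 with 58 of 76 positive, or without either gfi1b/1ab DM library. For gfi1aa/1b DM against gfi1b-/- the 0 became 3 without either gfi1 TM library.

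Whether gfi1aa loss acted differently where another gene was lost was tested directly. For gfi1aa with gfi1ab, 1 gene passed, rpl24 (0.52, standard error 0.09, adjusted p = 0.0029), where 3.79% of all genes passed in this direction and 4.81% in the other. Of the 76 genes 75 had a positive estimate with a median of 0.18, of which 27 were at an unadjusted p under 0.05. Of all 19903 genes 10225 had a positive estimate, of which 2299 were at an unadjusted p under 0.05. The number past the adjusted threshold was 57 without gfi1 TM replicate 2 and 2 without gfi1ab-/- replicate 1, fits in which 70 and 58 genes were at an unadjusted p under 0.05. For gfi1aa with gfi1b 0 genes passed in either direction by edgeR and by DESeq2, where 2.19% of all genes passed as higher and 1.83% as lower. At an unadjusted p under 0.05 there were 0, where 1944 of all 19903 genes were higher and 1774 lower. The median over the 76 genes was -0.05. That median was -0.14 without gfi1 TM replicate 1, with 30 genes lower at an unadjusted p under 0.05, and 0.02 without gfi1 TM replicate 2, so its sign turned on a single library.

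Averaged over its 4 backgrounds, loss of gfi1b moved few ribosomal protein genes past the threshold. The mean share of counts was 8.28% in gfi1b-/- against 7.56% in WT, and 8.64% in gfi1aa/1b DM against 7.87% in gfi1aa-/-. It was 8.37% in gfi1b/1ab DM against 8.25% in gfi1ab-/-, and 9.37% in gfi1 TM against 9.98% in gfi1aa/1ab DM. These differences in share, and whether they differed between backgrounds, were not tested. Replicates lay far apart in gfi1 TM (10.2% and 8.52%) and in gfi1ab-/- (8.72% and 7.79%). In gfi1 TM, gfi1aa/1b DM, gfi1b/1ab DM and gfi1b-/- against the other 4 genotypes, rpl31 was higher (0.38, standard error 0.05, adjusted p = 3.5e-04) and rpl26 lower (-1.37, standard error 0.40, adjusted p = 0.043), where 4.71% of all genes were higher and 5.03% lower, and the median was 0.04. Without both gfi1aa/1ab DM libraries 19 genes were higher and the median was 0.14, without gfi1 TM replicate 2 16 were higher, and without gfi1ab-/- replicate 1 4 were. The call for rpl26 was lost in 12 of the 16 fits that left out a library, all but those without gfi1 TM replicate 1, gfi1aa/1ab DM replicate 2, gfi1aa/1b DM replicate 2 and WT replicate 2.

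With all mutants set against WT, 46 of 76 genes were higher and 0 lower (7.36% of all genes higher, 8.06% lower), with a median of 0.23 against -0.01 over all genes. rpl31 (0.77, standard error 0.08, adjusted p = 2.7e-05), rps29 (0.52), rps12 (0.35), rpl36 (0.34) and rps26 (0.34) changed most. In 31 genes all 14 mutant libraries lay above both WT libraries, where 4.94% of all genes did. The comparison rests on 2 WT libraries, and 3 genes passed when either was left out, 17 without both gfi1aa/1ab DM libraries, and 0 with 1 mean per side (35 at an unadjusted p under 0.05). WT takes part in this comparison and in those of gfi1aa, gfi1b and gfi1ab loss, and all of them use the same 16 libraries, so their counts are not separate evidence.

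Genes of the stalk and the catalytic core of the large subunit differed in whether they passed the threshold, and they were not tested against each other. rplp0, the base of the stalk that recruits elongation factors, had 3357 and 2662 CPM in gfi1 TM, 3227 and 3274 CPM in libraries of gfi1aa/1ab DM, 3030 and 3150 CPM in libraries of gfi1aa/1b DM, 2598 and 2658 in gfi1aa-/-, 2618 and 2696 in gfi1b/1ab DM, 2874 and 2618 in gfi1ab-/-, 2730 and 2747 in gfi1b-/-, and 2548 and 2521 in WT. Its WT libraries were the lowest of all, and the highest were gfi1 TM replicate 1 and both libraries of gfi1aa/1ab DM, followed by those of gfi1aa/1b DM. It passed for gfi1aa loss (0.16, adjusted p = 0.018) and had a log2 fold change of 0.09 for gfi1ab loss (adjusted p = 0.15). Of its partners in the stalk, rplp1 passed for gfi1aa loss (0.20, adjusted p = 0.0088) and gfi1ab loss (0.21, adjusted p = 0.0044), while rplp2 passed for neither, at 0.10 for each. rpl3, which lies near the peptidyl transferase centre, also passed for neither (0.10 and 0.10) and had the lowest spread over the libraries of the 76 genes (SD 0.11 on the log2 scale). rpl10, needed in yeast for the last steps of large subunit assembly, passed for gfi1aa loss (0.16, adjusted p = 0.023) and gfi1ab loss (0.18, adjusted p = 0.011).

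Several ribosomal proteins of either subunit are known for other roles. rpsa, once described as a laminin receptor, had 2074 at the lowest, 2449 at the median and 2907 CPM at the highest in gfi1aa related mutants, against 2000, 2274 and 2479 CPM in the other libraries, an overlap in which gfi1aa-/- held the low end (log2 fold change 0.16, adjusted p = 0.019). rps6, the substrate of S6 kinase, was higher on gfi1aa loss (0.16, adjusted p = 0.020) and gfi1ab loss (0.17, adjusted p = 0.010), and rps3, which lines the mRNA entry channel, likewise (0.17 and 0.16, adjusted p = 0.012 and 0.011). rps27a, encoded as a fusion with ubiquitin, passed for gfi1ab loss (0.13, adjusted p = 0.042), a call lost in 14 of the 16 fits that left out a library, and not for gfi1aa loss (0.09, adjusted p = 0.15). rpl38, which in mouse is needed for translation of Hox mRNAs, passed for gfi1ab loss (0.22, adjusted p = 0.016) and had 0.18 with an adjusted p of 0.054 for gfi1aa loss. rpl13a, which in human cells also joins a complex that silences inflammatory mRNAs, passed for gfi1ab loss (0.19, adjusted p = 0.014) and not for gfi1aa loss (0.13, adjusted p = 0.10).

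The 5S particle proteins rpl5a and rpl11, whose human counterparts bind MDM2 and thereby stabilize p53 when ribosome assembly fails, were both higher on gfi1ab loss, by 0.20 (standard error 0.04, adjusted p = 0.0022) and 0.17 (standard error 0.04, adjusted p = 0.0090). On gfi1aa loss rpl11 passed (0.17, adjusted p = 0.018) and rpl5a did not (0.09, adjusted p = 0.13), and these genes were not tested against each other. rpl5a lies next to gfi1aa in the genome, with 2 protein-coding genes between them in the RefSeq order of the GRCz12tu assembly, and its other copy, rpl5b, is separated from gfi1ab by 1 gene. rpl5b, which the symbol rule does not take in, had 1076 to 1553 CPM and was higher on gfi1ab loss (0.23, adjusted p = 0.0011) and gfi1aa loss (0.14, adjusted p = 0.029). Both lay within the range of the other ribosomal protein genes in each comparison.

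Among the 73 genes with over 5000 counts, rpl31 was the gene whose pattern stood furthest from the group. It had 1157 and 1109 CPM in gfi1aa-/- and 1033 and 1090 CPM in WT, while the other 12 libraries held more, with 2301 and 2043 CPM for gfi1 TM, 1872 and 1971 CPM for gfi1aa/1ab DM, and 1845 and 1991 CPM for gfi1aa/1b DM. gfi1b/1ab DM had 1929 and 1712 CPM, gfi1ab-/- 2385 and 1844, and gfi1b-/- 1871 and 1794. The 12 libraries that lack gfi1b or gfi1ab thus lay at 1712 CPM or more and the 4 libraries that lack neither at 1157 or less, with no overlap. This grouping was drawn after the values were seen, and the share of all genes that show it was not counted. rpl31 passed for gfi1b loss and gfi1ab loss and in all mutants against WT, and it did not pass for gfi1aa loss (0.07, adjusted p = 0.39). Under the other settings its change stayed between 0.43 and 0.53 for gfi1ab loss and between 0.31 and 0.50 for gfi1b loss, and each of these calls was lost only with 1 mean per side (adjusted p = 0.074 and 0.46). rpl22l1, a relative of rpl22 that the symbol rule leaves out, had a similar order, with 164.8 and 171.4 CPM in gfi1aa-/- and 174.7 and 178.6 in WT, against 206.9 to 288.4 in the other libraries, and passed for gfi1b loss (0.19, adjusted p = 0.0087) and gfi1ab loss (0.31, adjusted p = 1.7e-04). rpl22 itself, linked to T cell development in mouse and zebrafish, had 0.02 for gfi1b loss (adjusted p = 0.86) and was higher on gfi1ab loss (0.22, adjusted p = 0.0037). The likeness of rpl31 and rpl22l1 was noticed after their values were seen.

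Apart from the sparse rpl26, rpl24 had the largest log2 fold change where gfi1aa was lost together with another gene. It had 1715 and 1677 CPM in gfi1aa/1ab DM against 1072 and 924.4 in gfi1ab-/- (log2 fold change 0.76, standard error 0.09, adjusted p = 1.5e-04). It had 1475 and 1211 CPM in gfi1 TM against 972.8 and 1011 in gfi1b/1ab DM (0.44, standard error 0.09, adjusted p = 0.023), and 1255 and 1245 CPM in gfi1aa/1b DM against 1051 and 986.9 in gfi1b-/- (0.29, adjusted p = 0.079). In gfi1aa-/- it had 989.2 and 1108 CPM against 1141 and 1162 in WT, the opposite order (-0.14, adjusted p = 0.39). Its libraries therefore did not overlap in any of the 4 backgrounds, in 3 upward and in 1 downward. Upward separation in a single background was shown by 21.2% to 29.0% of all genes, and the share separated in all 4 was not counted. Under all other settings the change over gfi1aa loss lay between 0.22 and 0.37, and the call was lost only with 1 mean per side (adjusted p = 0.080). The call for rpl24 on gfi1ab loss (0.14, adjusted p = 0.038) was not stable: without both gfi1aa/1ab DM libraries the log2 fold change was -0.02 (adjusted p = 0.80).

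**Figure D4:**
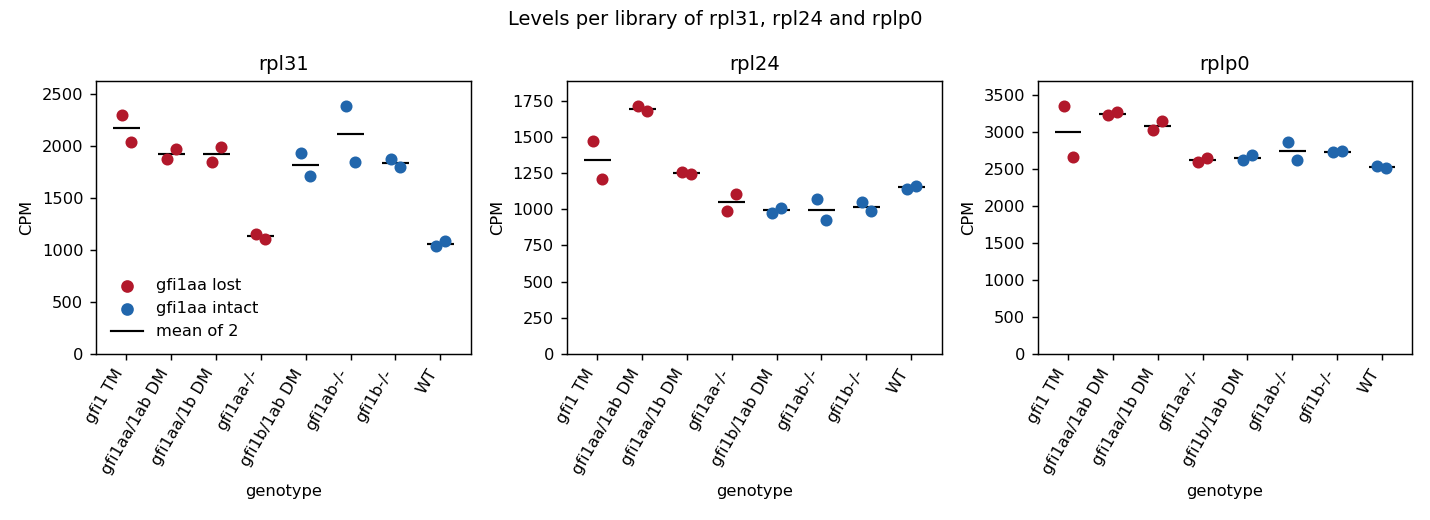
CPM per library (vertical axes, from 0) of rpl31, rpl24 and rplp0 by genotype, in red for genotypes that lack gfi1aa and in blue for the others, with a line at the mean of 2 libraries. rpl31 is at 1157 CPM or less in gfi1aa-/- and WT and at 1712 or more elsewhere, rpl24 is highest in gfi1aa/1ab DM (1715 and 1677 CPM), and rplp0 stays between 2521 and 3357 CPM.

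Genes present as pairs differed in level and in certainty. rps27.1 and rps27.2, which encode copies of the same small subunit protein, were both higher on gfi1aa loss (0.18 and 0.18, adjusted p = 0.028 and 0.037) and on gfi1ab loss (0.16 and 0.20, adjusted p = 0.029 and 0.014). rps8a passed for gfi1aa loss (0.18, adjusted p = 0.033) and gfi1ab loss (0.19, adjusted p = 0.015), while its relative rps8b had only 25 to 80 counts per library. rpl37 gave a call for ENSDARG00000034291 and none for ENSDARG00000076360, which had 177 to 309 counts per library and which the reference name table lists under another symbol. Reads that map to several places were left out by the authors, so counts of such copies are uncertain. rpl26, a protein near the exit tunnel whose human counterpart binds p53 mRNA, had 0.63 and 0.22 CPM in gfi1 TM, 2.71 and 1.34 CPM in libraries of gfi1aa/1ab DM, 0.45 and 1.36 CPM in libraries of gfi1aa/1b DM, 1.48 and 1.64 in gfi1aa-/-, 0.20 and 0.25 in gfi1b/1ab DM, 0.41 and 0.40 in gfi1ab-/-, 0.16 and 0.44 in gfi1b-/-, and 1.80 and 0.29 in WT. Replicates of gfi1aa/1b DM and of WT differed more than most genotypes did, and the calls for gfi1aa loss (1.35, adjusted p = 0.035) and gfi1b loss rest on 3 to 45 counts per library. The mean level of rpl26 was 0.86 CPM, where the median over the 76 genes was 1011 CPM, and the reason for this gap was not tested.

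Of the Diamond-Blackfan anaemia genes, 21 were tested and all are among the 76. On gfi1ab loss 20 were higher and 0 lower (95.2%, median 0.21), against 90.8% of the 76 (median 0.19) and 12.7% of all genes. On gfi1aa loss 18 were higher and 0 lower (85.7%, median 0.17), against 72.4% of the 76 (median 0.17) and 7.08% of all genes. As the 21 are part of the 76, these counts are not a separate result. On gfi1aa loss those that did not pass were rpl5a, rpl31 and rps10, and on gfi1ab loss rpl26. Genes of red cells themselves moved the other way on gfi1aa loss. Of 11 erythroid genes 8 (72.7%, against 7.47% of all genes) were lower and 1 (9.09%, against 7.08%), tal1, was higher (median -1.52, hbbe3 -3.92, gata1a -1.59). On gfi1ab loss 4 of the 11 (36.4%, against 12.7% of all genes) were higher, among them hbbe1.1 (2.15) and hbae3 (1.03), and 1 (9.09%, against 11.2%) was lower. The median of the 11 was 0.02, with 6 positive and a lowest value of -0.98.

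Other genes of the translation machinery are set here against all genes tested, of which 12.7% were higher and 11.2% lower on gfi1ab loss, and 7.08% higher and 7.47% lower on gfi1aa loss. Ribosome biogenesis genes, which process and assemble ribosomal RNA and proteins, were higher in 23 of 54 cases (42.6%) on gfi1ab loss with 0 lower (median 0.10), among them polr1d, a subunit of RNA polymerases I and III (0.33), nop16 (0.31) and gar1 (0.28), and in 6 of 54 (11.1%) on gfi1aa loss with 0 lower (median 0.06), a share near that of all genes, led by nhp2 (0.16). Translation factors and other TOP mRNAs were higher in 16 of 26 cases (61.5%) and lower in 2 on gfi1ab loss (median 0.13), among them the elongation factor genes eef1b2 (0.24) and eef1g (0.19) and rack1 (0.20), a scaffold on the small subunit. On gfi1aa loss 4 (15.4%) were higher, eif3g (0.16), tpt1 (0.16), eif3m (0.13) and eif3f (0.13), and hnrnpa1a was lower (-0.14; median of the 26 genes 0.07). Ribosomal protein genes of the mitochondrion, which belong to a separate ribosome, were higher in 35 of 74 cases (47.3%) on gfi1ab loss with 0 lower (median 0.16, mrpl38 0.30) and in 17 of 74 (23.0%) on gfi1aa loss with 0 lower (median 0.11, mrpl42 0.36 and mrps14 0.34). Relatives outside the symbol rule were higher in 7 of 9 cases on gfi1ab loss and in 3 of 9 on gfi1aa loss (rplp2l, rps26l and rpl5b).

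**Figure D5:**
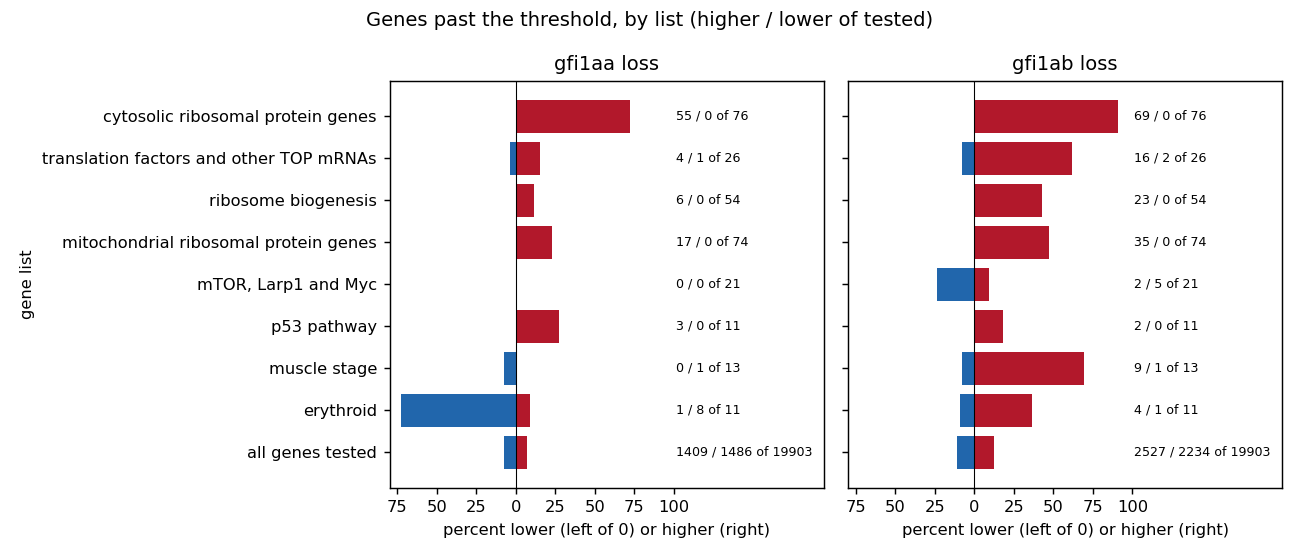
Percent of genes of each list that were higher (red, right of 0) or lower (blue, left of 0) at an adjusted p under 0.05 on gfi1aa loss and on gfi1ab loss, with counts at the right. Of the lists drawn, cytosolic ribosomal protein genes have the largest red bars (55 of 76 and 69 of 76), and the erythroid list has the longest blue bar (8 of 11 on gfi1aa loss).

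Known regulators of ribosomal protein synthesis were also tested. Of 21 genes of mTOR signalling, Larp1 and Myc, 0 were higher and 0 lower on gfi1aa loss by edgeR (median -0.07). At an unadjusted p under 0.05, 2 were higher and 4 lower, where 2924 of all 19903 genes were higher and 2944 lower. On gfi1ab loss 2 (9.52%, against 12.7% of all genes) were higher, myca (0.29) and eif4ebp1 (0.14), and 5 (23.8%, against 11.2%) were lower, tsc1b (-0.34) and tsc2 (-0.19), which restrain mTOR, and rictora (-0.19), rptor (-0.16) and mtor (-0.13). Of 11 p53 pathway genes 3 were higher on gfi1aa loss, where 7.08% of all genes were. These were cdkn1a, which stops the cell cycle (0.40, adjusted p = 0.012), ccng1 (0.23) and baxa (0.14). On gfi1ab loss 2 of the 11 were higher, cdkn1a (0.44) and ccng1 (0.40), a share near the 12.7% of all genes. On gfi1aa loss and on gfi1ab loss 0 of the 11 were lower, against 7.47% and 11.2% of all genes. By background, gfi1aa loss had 0 higher and 0 lower in gfi1aa-/- against WT (median -0.01). gfi1aa/1b DM against gfi1b-/- had 0 higher and 1 lower (median -0.08). gfi1aa/1ab DM against gfi1ab-/- had 2 higher and 0 lower (median 0.30), as had gfi1 TM against gfi1b/1ab DM (median 0.50). Of all genes 1.05% to 6.47% were higher and 0.909% to 8.24% lower in these backgrounds. On gfi1b loss, where 4.71% of all genes were higher and 5.03% lower, the lists had 2 higher and 1 lower of 54 ribosome biogenesis genes, 0 higher and 1 lower of 26 translation factors and TOP mRNAs, and 1 higher and 1 lower of 74 mitochondrial ribosomal protein genes. mRNA levels alone were measured, so neither translation of these mRNAs nor the number of ribosomes was.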

How the data were processed

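The authors aligned reads with STAR to GRCz11 (versions not given in the sources used here) and deposited raw counts per gene, in files per library and in a table whose 16 columns equal them. Lines that name no gene, such as reads mapped to several places (3.52% to 5.57% per library), were left out. Genes were filtered with filterByExpr (19903 kept, all 76 ribosomal protein genes among them), scaled by TMM and fitted with edgeR 4.0.16 in R 4.3.3 by the quasi-likelihood method, with 1 mean per genotype and 8 residual degrees of freedom. p-values were adjusted by Benjamini-Hochberg over all genes tested, with a threshold of 0.05. Log2 levels per library used a prior count of 2, and fold changes were those of the fit at its default setting. Each loss compared the mean of 4 genotypes with the mean of the other 4. Nothing states that replicates came from separate clutches, so p-values measure only the spread between these libraries. The fits were tested on simulated data. Alternatives were DESeq2 1.42.0, other scaling, no filter, a replicate block, 1 mean per side and leaving out libraries. Intervals of shares are exact binomial and cover counting error only.

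Genes named in the text are up to 10 per comparison and direction by fold change among those past the threshold, members with well known roles, copies, extremes of level and spread, and up to 6 genes per list. Members and lists were chosen with earlier results of these data known. gfi1aa had 126 to 267 counts per library, gfi1b 47 to 120 and gfi1ab 23 to 74, and these counts do not tell the genotypes apart. Python 3.11.15 with pandas 2.3.3, numpy 2.4.6, scipy 1.17.1 and matplotlib 3.10.9 was used for summaries and plots.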

Additional observations from a re-analysis of the deposited data

Results flagged for a closer look

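Among the 8 libraries that lack gfi1b, gfi1 TM replicate 1 lay far above the other 7, by a gap larger than Dixon's 95% critical value for 8 samples. This held for the share of counts on ribosomal protein genes (10.2%) and for the level of rpl10 (1941 CPM), rpl11 (1394 CPM), rpl13a (677.8 CPM), rpl22 (571.6 CPM), rpl3 (3433 CPM), rpl5a (1111 CPM), rplp1 (1781 CPM), rps19 (998.8 CPM), rps27a (1671 CPM), rps6 (2307 CPM) and rpsa (2742 CPM). The 12 values come from the same library and are not separate signals.

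rpl26 gave 3 such values, each from few counts: 1.80 CPM in WT replicate 1 among the libraries with gfi1aa, 1.36 CPM in gfi1aa/1b DM replicate 2 among those without gfi1b, and 2.71 CPM in gfi1aa/1ab DM replicate 1 among those without gfi1ab. In all, 114 groups of libraries were examined and 15 stood out. Chance marks about 1 in 20 separate groups, but these groups share libraries and their genes shifted together. That rate therefore cannot be set against the 15.

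The change of rpl24 on gfi1aa loss was larger in embryos with loss of gfi1ab than in those without it, by 0.52 on the log2 scale, in the test of the interaction.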

How the results depend on the processing

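With size factors of DESeq2's kind and with TMM computed without the ribosomal protein genes, every count of genes past the threshold stayed within 1.5 times its value. With 1 mean per side, 9.70% of all genes were higher in gfi1aa/1b DM against gfi1b-/- and 3.74% in gfi1aa/1ab DM against gfi1ab-/-. Of the 76 genes, the number higher was then 0 for gfi1aa loss, 0 for gfi1b loss, 6 for gfi1ab loss, 0 for all mutants against WT, 1 for gfi1aa-/- against WT, 18 for gfi1aa/1b DM against gfi1b-/- (1 lower), 18 for gfi1aa/1ab DM against gfi1ab-/- and 0 for gfi1 TM against gfi1b/1ab DM, and 0 were lower for gfi1b loss. Without both gfi1aa/1ab DM libraries, an alternative added after seeing the data, it was 2 for gfi1aa loss, 19 for gfi1b loss (0 lower), 13 for gfi1ab loss and 17 for all mutants against WT, and rpl24 had a log2 fold change of -0.023 for gfi1ab loss, the only named result to turn round. Without both gfi1 TM libraries, also added after seeing the data, 3 were lower for gfi1b loss. At an adjusted p under 0.01 the number was 13 for gfi1aa loss, 9 for all mutants against WT, 8 for gfi1aa/1ab DM against gfi1ab-/-, 0 for gfi1 TM against gfi1b/1ab DM and 0 lower for gfi1b loss. With no filter it was 6 higher and 2 lower for gfi1b loss, 1 for gfi1aa/1b DM against gfi1b-/-, 17 for gfi1 TM against gfi1b/1ab DM and 16 for gfi1aa with gfi1ab. DESeq2 gave 2 for gfi1b loss and 1 for gfi1aa/1b DM against gfi1b-/-, and total counts without TMM gave 2 for gfi1b loss. The share of counts had a median over libraries of 8.43%, or 6.64% of all reads.

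Leaving out 1 library gave 17 to 71 higher for gfi1aa loss, 1 to 16 higher and 0 to 2 lower for gfi1b loss, 59 to 73 for gfi1ab loss, 3 to 68 for all mutants against WT, 0 to 3 for gfi1aa/1b DM against gfi1b-/- (3 without either gfi1 TM library), 2 to 71 for gfi1aa/1ab DM against gfi1ab-/-, 0 to 55 for gfi1 TM against gfi1b/1ab DM and 1 to 57 for gfi1aa with gfi1ab.

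Over all genes tested, same-numbered libraries did not deviate together (r of -0.091 to 0.092 over 28 pairs of genotypes), and the main fit did not pair them. Genes with few counts weigh as much as others in this r, so it cannot exclude a clutch or batch shared by some libraries. With the replicate block 54 were higher for gfi1aa loss, 70 for gfi1ab loss and 0 lower for gfi1b loss.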
